A study of Ovis aries with 9 samples.

Results

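A set of 10 genes of antigen presentation and lymphocytes was followed through the hypothalamus of Dolang sheep (Ovis aries). They were CD74, CIITA, B2M, PTPRC, CD3E, CD3D, CD4, CD8A, LCP1 and CORO1A, 10 of the 21284 genes that carried a RefSeq symbol. The set was built around CD74, which had been seen to be high in 2 of the 9 libraries, Prepuberty 1 and Postpuberty 3, and the question was which of the other 9 genes share that pattern. The set was thus chosen by the measured FPKM of CD74 in those libraries, which is described without a test. The libraries came from 3 ewes at prepuberty (120 to 121 days old), 3 at puberty (130 to 131 days old) and 3 at postpuberty (150 to 151 days old), with 1 library from each animal. All were healthy ewes kept in the same way, and stage was judged from behaviour and from the state of the vulva. Each library held RNA of whole hypothalamic tissue with every cell type in it, so more cells of a type and more RNA per cell cannot be told apart.

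MHC class II molecules carry peptides from ingested material to helper T cells, and MHC class I molecules carry peptides made inside the cell to cytotoxic T cells. CD74, the invariant chain, guides newly made class II molecules to the compartment where they are loaded, and CIITA is the transcriptional co-activator that switches the class II genes on. In healthy brain tissue the class II pathway is found mainly in microglia and in macrophages around vessels and in the meninges, while T cells are sparse.

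Expression is given as FPKM, a read abundance scaled for transcript length and for the size of the library, summed over the RefSeq mRNAs of each gene. Puberty 2 stood apart from the other libraries. Its FPKM summed to 599726 over all transcripts against 359588 to 398109 in the other 8, and 42441 transcripts were above 0 in it against 67824 to 71787. An FPKM of exactly 0 can be a failed estimate, so such a value is called listed at 0. Among genes that mark hypothalamic neurons, GNRH1 was listed at 0 in all 9 libraries and AGRP did not exceed 0.169 FPKM, while POMC lay between 2.09 and 22.4 FPKM and SST between 4.27 and 107 FPKM. PRL, a pituitary hormone gene, reached 199.5 FPKM in Postpuberty 1, and TTR, the main transcript of choroid plexus, reached 7594 FPKM in Puberty 3.

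All 10 genes passed the filter on low values (a mean of at least 0.5 FPKM in at least 1 stage), CD4 only through postpuberty. In 9 of the 10 the 2 highest of the 9 values were those of Postpuberty 3 and Prepuberty 1. CORO1A was the exception, with its highest value in Puberty 2. Of all 14238 genes that passed the filter, 1081 (7.59%) had their 2 highest values in these same libraries. The 10 genes were chosen with these data known, so the count describes them and is no test. Without Puberty 2 the count was 10 of 10, but the 7.59% is a share over 9 libraries and does not apply to it. No share of all genes is given for that setting. The level in Postpuberty 3, divided by the gene's own median over the 9 libraries, ran from 2.48 to 20.2 with a median of 8.53 over the 10 genes, whereas the median over all genes was 1.02 and the 95th percentile 2.50. The same quotient for Prepuberty 1 ran from 2.10 to 7.98 with a median of 4.99, and over all genes the median was 1 and the 95th percentile 2.58. The 20.2 in Postpuberty 3 was that of CD4, which passed the filter only through postpuberty, and the next highest was 17.0 (CD3D). CD74, by whose level the set was chosen, had 6.53 there. Like the count, these quotients describe the 10 genes and are no test.

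**Figure D1:**
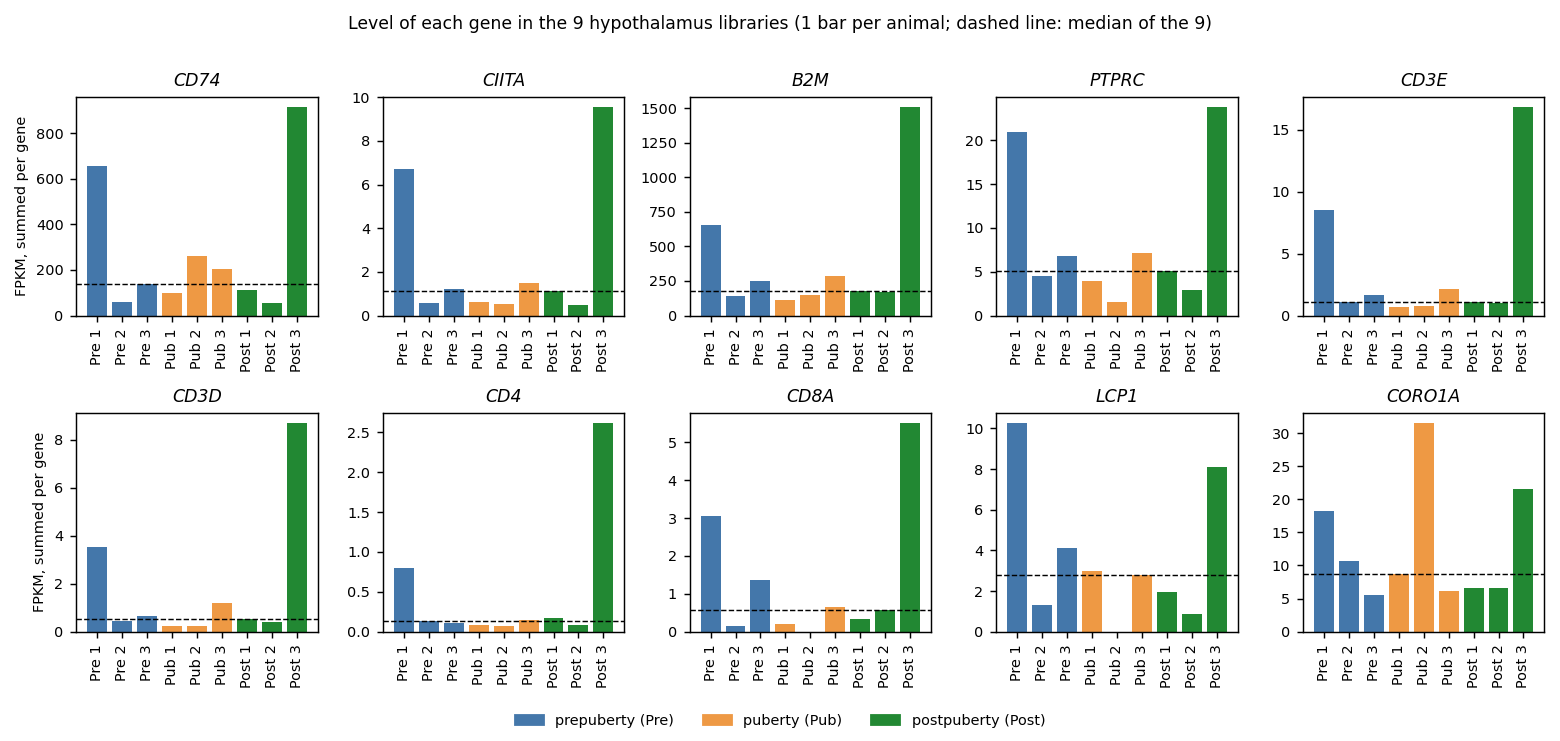
FPKM of each of the 10 genes (vertical axis, its own scale for each gene) in the 9 libraries, with 1 bar per animal coloured by stage and a dashed line at the median of the 9. The bars of Prepuberty 1 and Postpuberty 3 are the tallest in every panel except that of CORO1A, where Puberty 2 is the tallest at 31.5 FPKM.

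The class II pathway was represented by CD74 and CIITA. In replicate order 1, 2 and 3, CD74 (chromosome 5, 59511696 to 59519484, ARS-UI_Ramb_v3.0) had 655, 61.3 and 140.0 FPKM in prepuberty, 100.3, 263 and 202 FPKM in puberty and 113, 52.8 and 913 FPKM in postpuberty. Its level in Postpuberty 3 was 3.48 times and that in Prepuberty 1 was 2.49 times the highest of the other 7, which was Puberty 2. The stage means were 285 ± 322 FPKM in prepuberty, 188 ± 82.1 FPKM in puberty and 360 ± 480 FPKM in postpuberty (SD, n = 3 each), so the SD exceeded the mean in both stages that held a high library. CIITA (chromosome 24, 10069025 to 10135018) had 6.73, 0.587 and 1.23 FPKM in prepuberty, 0.625, 0.519 and 1.51 FPKM in puberty and 1.11, 0.486 and 9.55 FPKM in postpuberty. The same animals were therefore high for the co-activator and for the invariant chain, and the other 7 libraries stayed at or below 1.51 FPKM of CIITA. The ratio of CD74 to CIITA lay between 95.7 and 160 in 8 libraries and was 506 in Puberty 2, where CD74 was the third highest and CIITA second lowest.

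B2M (chromosome 7, 101114136 to 101120355) encodes the invariant light chain that every classical class I molecule needs at the surface, and most nucleated cells make it. It had 657, 138 and 251 FPKM in prepuberty, 109, 148 and 289 FPKM in puberty and 178, 174 and 1508 FPKM in postpuberty. Postpuberty 3 had 2.30 times the level of Prepuberty 1, a wider gap than the 1.39 times of CD74. B2M exceeded CD74 in 8 of 9 libraries, and the ratio of B2M to CD74 ran from 0.562 in Puberty 2 to 3.29 in Postpuberty 2.

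CD3E and CD3D encode signalling chains of the T cell receptor complex and lie next to each other on chromosome 15, with 4502 bases between CD3E (28746217 to 28756838) and CD3D (28761341 to 28765723). CD3E had 8.50, 1.07 and 1.62 FPKM in prepuberty, 0.690, 0.765 and 2.10 FPKM in puberty and 1.05, 0.981 and 16.8 FPKM in postpuberty. CD3D had 3.53, 0.443 and 0.662 FPKM in prepuberty, 0.239, 0.249 and 1.21 FPKM in puberty and 0.512, 0.397 and 8.68 FPKM in postpuberty. Both genes were highest in Postpuberty 3, then in Prepuberty 1 and then in Puberty 3. Outside these 3 libraries CD3E stayed at or below 1.62 FPKM and CD3D at or below 0.662 FPKM. CD3E was above CD3D in 9 of 9 libraries, by 1.74 to 3.07 times.

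Both T cell co-receptors shared the pattern from low levels, and CD4 had the lowest median of the 10 genes, 0.129 FPKM. CD4 (chromosome 3, 209470950 to 209494966), the co-receptor for class II, had 0.800, 0.129 and 0.105 FPKM in prepuberty, 0.0806, 0.0730 and 0.143 FPKM in puberty and 0.173, 0.0840 and 2.61 FPKM in postpuberty. Its level in Postpuberty 3 was 15.1 times the highest of the other 7 libraries and 3.27 times that of Prepuberty 1, the widest gaps among the 10 genes on both counts. CD8A (chromosome 3, 58631415 to 58638744), a chain of the co-receptor for class I, had 3.07, 0.139 and 1.35 FPKM in prepuberty, 0.197, 0 and 0.642 FPKM in puberty and 0.343, 0.579 and 5.51 FPKM in postpuberty. It was thus listed at 0 in Puberty 2, and Prepuberty 3 was the highest of the other 7 libraries. CD8A was above CD4 in the 8 libraries where it was not at 0, by 1.07 times in Prepuberty 2 and up to 12.9 times in Prepuberty 3.

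PTPRC, LCP1 and CORO1A are used widely among leukocytes. PTPRC (chromosome 12, 76941665 to 77094978) encodes CD45, the tyrosine phosphatase on the surface of nucleated blood cells. It had 20.9, 4.46 and 6.80 FPKM in prepuberty, 3.96, 1.55 and 7.13 FPKM in puberty and 5.09, 2.97 and 23.8 FPKM in postpuberty. Its high libraries were close to each other, with 1.14 times as much in Postpuberty 3 as in Prepuberty 1. CD3E divided by PTPRC, the T cell receptor chain over the leukocyte marker, was 0.406 in Prepuberty 1 and 0.708 in Postpuberty 3, and between 0.175 and 0.494 in the other 7 libraries.

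LCP1 (chromosome 10, 16581318 to 16675220) encodes L-plastin, which bundles actin filaments in leukocytes. It had 10.2, 1.31 and 4.10 FPKM in prepuberty, 2.98, 0 and 2.79 FPKM in puberty and 1.94, 0.876 and 8.12 FPKM in postpuberty. LCP1 was the single gene of the 10 with a higher level in Prepuberty 1 than in Postpuberty 3, and it was listed at 0 in Puberty 2. CORO1A (chromosome 24, 26648525 to 26653966) encodes coronin 1A, an actin-binding protein of leukocytes that neurons also make. It had 18.3, 10.7 and 5.53 FPKM in prepuberty, 8.72, 31.5 and 6.08 FPKM in puberty and 6.57, 6.57 and 21.6 FPKM in postpuberty. Postpuberty 3 and Prepuberty 1 came next, at 0.687 and 0.581 times the value of Puberty 2. CORO1A also had the smallest excess over its own median in both libraries, 2.48 times in Postpuberty 3 and 2.10 times in Prepuberty 1.

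The 9 genes other than CD74 were compared with it by Pearson's r of log2(FPKM + 1), as a description in which the points share a library and its depth. Over the 9 libraries r was 0.89 for CIITA, 0.86 for B2M, 0.86 for CD3E, 0.85 for CD3D, 0.80 for CD4, 0.78 for CD8A, 0.74 for PTPRC, 0.66 for CORO1A and 0.62 for LCP1, and Spearman's rho ran from 0.43 (CORO1A) to 0.75 (CIITA). Without Puberty 2, r over 8 libraries was higher for each of the 9 genes, from 0.75 (CORO1A) and 0.86 (CD4) to 0.98 (CIITA and PTPRC). Over the 7 libraries without Prepuberty 1 and Postpuberty 3, r was 0.44 for CIITA, 0.42 for CORO1A and 0.36 for B2M, and between -0.094 (LCP1) and 0.28 (CD3D) for the other 6. When Puberty 2 too was left out, r over the remaining 6 libraries was 0.94 for CIITA, 0.89 for PTPRC, 0.82 for LCP1, 0.74 for CD3D, 0.71 for CD3E, 0.65 for B2M, 0.45 for CD8A and 0.40 for CD4, and it was -0.56 for CORO1A. In those 6 libraries the order of CIITA was the same as that of CD74 (rho 1.0). Among the 45 pairs of the 10 genes, r over 9 libraries was highest for CD3E with CD3D at 0.99, and its median was 0.86. Over the 7 libraries the median was 0.51, with a range from -0.83 (PTPRC with CORO1A) to 0.97 (CD3E with CD3D).

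**Figure D2:**
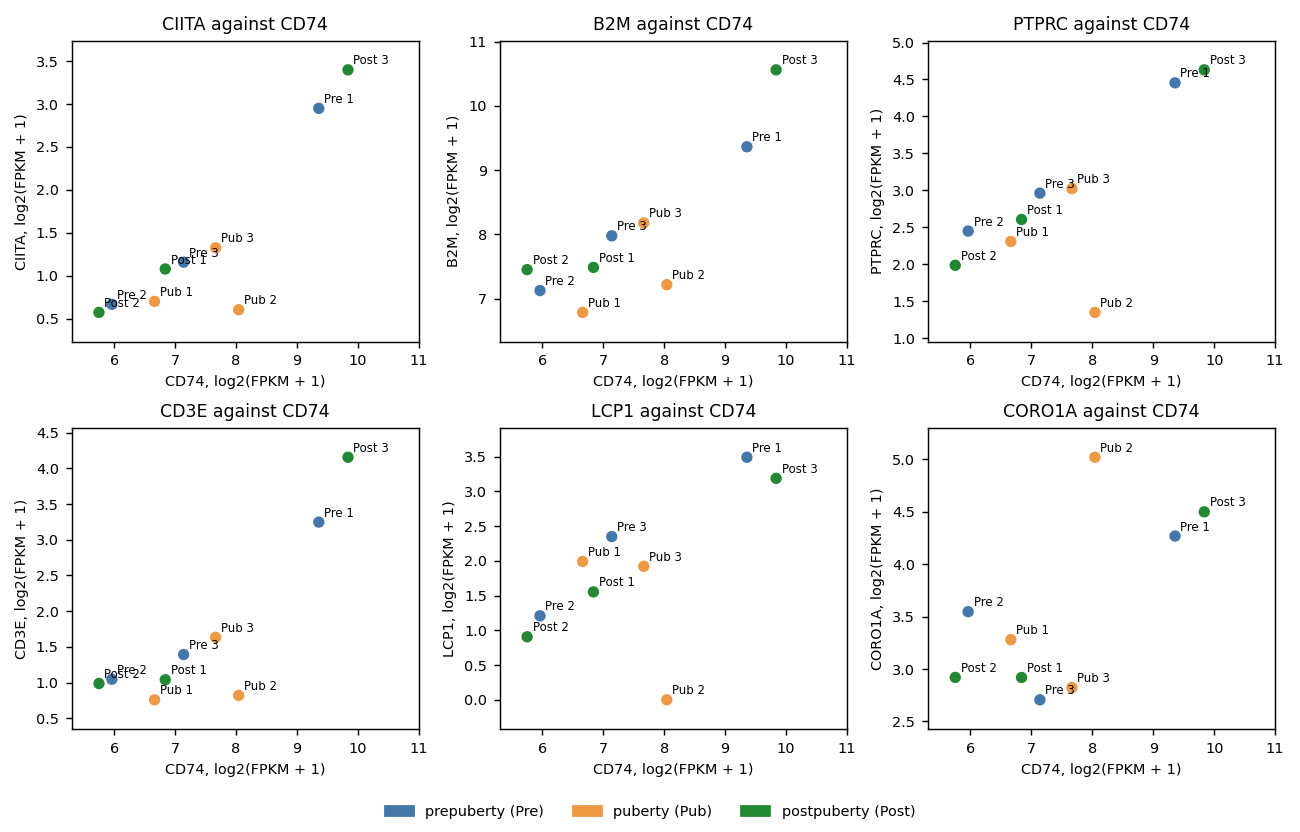
log2(FPKM + 1) of 6 of the genes (vertical axes) against that of CD74 (horizontal axis), with 1 point per library coloured by stage. Prepuberty 1 and Postpuberty 3 lie at the upper right, and Puberty 2 falls below the other libraries of similar CD74 in the panels of CIITA, B2M, PTPRC, CD3E and LCP1 but above all libraries in that of CORO1A.

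Other genes followed CD74 more closely than any of these 9. Of the 12280 genes with a mean of at least 1 FPKM, the 10 with the highest r over 9 libraries were ARHGAP45, TAPBPL, SPI1, HCLS1, ADA2, PTPN6, MYO1F, NCF1, MOV10 and GIMAP1, with r from 0.96 (GIMAP1) to 0.97 (ARHGAP45). CIITA came at rank 120, CD3E at 160, B2M at 166, CD3D at 179, CD8A at 382, PTPRC at 487, CORO1A at 738 and LCP1 at 873 (CD4 fell under the minimum), and the median r of all ranked genes was -0.051. SPI1, a transcription factor of myeloid and B cells, had 10.9, 3.63 and 4.77 FPKM in prepuberty, 3.01, 7.68 and 5.21 FPKM in puberty and 4.61, 2.24 and 12.7 FPKM in postpuberty. It kept the third place of CD74 in Puberty 2, which none of the 9 genes other than CD74 did. Over the 7 libraries without Prepuberty 1 and Postpuberty 3, r of these 10 genes with CD74 was between 0.87 and 0.95, but they were picked for a high r over libraries that include these 7.

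The transcripts behind the sums differed in how steady they were. CD74 was nearly all XM_042250988.1, with 61.0% to 73.4% of its FPKM, and XM_012178802.4, with 26.1% to 38.0%, and both were high in the same libraries (442 and 210 FPKM in Prepuberty 1, 636 and 272 FPKM in Postpuberty 3). B2M came almost entirely from XM_012180604.3, which held 98.5% to 99.8%. In LCP1 the transcript changed between the high libraries. XM_012184417.4 had 10.2 FPKM in Prepuberty 1 and 0.333 FPKM in Postpuberty 3, while XM_042254681.1 was listed at 0 in Prepuberty 1 and had 7.21 FPKM in Postpuberty 3. For PTPRC, XM_042229310.1 held 69.7% to 96.6% in 7 libraries and was listed at 0 in Puberty 1 and Puberty 2, where XM_042229306.1 held 83.1% and 99.3%. In CIITA, XM_042239896.1 had 5.67 FPKM in Prepuberty 1 and 5.04 FPKM in Postpuberty 3, and XM_042239893.2 added 0.211 and 2.24 FPKM. The high value of CORO1A in Puberty 2 came from XM_004020872.4, with 26.5 FPKM there. Transcripts of 1 gene share most of their sequence, so the split between them is less certain than the sum.

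**Figure D3:**
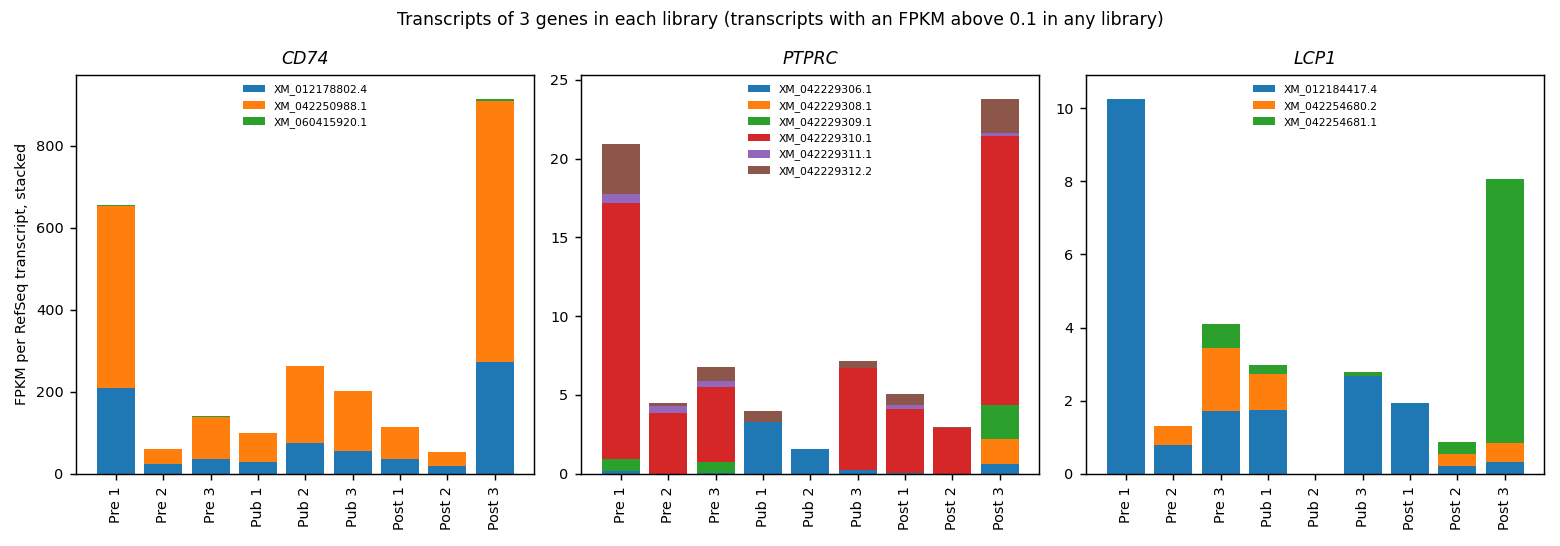
FPKM of the RefSeq transcripts of CD74, PTPRC and LCP1 (vertical axis, stacked, transcripts above 0.1 FPKM in any library) in the 9 libraries. CD74 keeps its transcript shares, PTPRC is carried by another transcript in Puberty 1 and Puberty 2, and LCP1 is carried by XM_012184417.4 in Prepuberty 1 and by XM_042254681.1 in Postpuberty 3.

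Further genes of the same pathways were taken from lists that exclude the 10. Of 15 genes that cut, transport or load class I peptides or drive class I expression, 9 had their 2 highest values in Postpuberty 3 and Prepuberty 1 and 14 were higher in Postpuberty 3 than in Prepuberty 1. TAP1, a subunit of the peptide transporter, had 23.1, 3.81 and 12.2 FPKM in prepuberty, 5.68, 0.396 and 10.6 FPKM in puberty and 6.48, 5.10 and 56.4 FPKM in postpuberty. NLRC5, the class I counterpart of CIITA, had 4.30 FPKM in Prepuberty 1, 11.6 FPKM in Postpuberty 3 and at most 1.69 FPKM elsewhere. The immunoproteasome subunits PSMB8 and PSMB9 shared the pattern with 13.6 and 47.5 FPKM in Prepuberty 1 and 39.4 and 87.2 FPKM in Postpuberty 3. The remaining subunit, PSMB10, did not, with 42.9 and 56.7 FPKM there and 129.6 FPKM in Puberty 2. PSME1, a proteasome activator subunit, did not either, with 1.07 and 5.11 FPKM in these libraries and up to 57.7 FPKM in Puberty 2. The chaperones CALR and CANX did not share it either, and lay between 103 and 176 FPKM and between 31.4 and 107 FPKM over the 9 libraries. The median quotient to the gene's own median over the list was 2.53 in Postpuberty 3 and 1.69 in Prepuberty 1.

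Of the 21 symbols listed for the class II pathway, 8 were in the table and 7 passed the filter. The gene that failed it was DYA, a class II chain, which was listed at 0 in all 9 libraries. The other class II chains were not analysed here. The pattern was shared by 5 of the 7, but the median quotient to the gene's own median was 1.37 in Postpuberty 3 and 1.35 in Prepuberty 1. The least marked sharers were RFX5, with 4.27 FPKM in Prepuberty 1 and 5.26 FPKM in Postpuberty 3 against at most 4.23 FPKM elsewhere, and LGMN, with 23.7 and 24.0 FPKM against at most 20.3 FPKM. The most marked were CTSS and IFI30. CTSS, the protease that degrades the invariant chain, had 93.3, 25.1 and 28.2 FPKM in prepuberty, 22.5, 14.3 and 37.2 FPKM in puberty and 30.4, 10.3 and 83.3 FPKM in postpuberty. IFI30, a thiol reductase of the loading compartment, had 6.74 FPKM in Prepuberty 1, 12.7 FPKM in Postpuberty 3 and at most 2.63 FPKM elsewhere. RFXAP and RFXANK, which with RFX5 form the complex that CIITA joins at class II promoters, were not among the sharers. RFXANK was 19.0 and 18.3 FPKM in Prepuberty 1 and Postpuberty 3 and 53.7 FPKM in Puberty 2.

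In the list of other T cell genes, 10 of 15 symbols passed the filter and 7 of the 10 shared the pattern. CD2, an adhesion molecule of T cells, had 5.29 FPKM in Prepuberty 1 and 8.36 FPKM in Postpuberty 3 against at most 1.19 FPKM elsewhere. LCK, the kinase that acts on the CD3 chains, had 3.13 and 6.99 FPKM against at most 1.32 FPKM elsewhere, and CD27 had 2.09 and 5.48 FPKM against at most 0.472 FPKM. CD8B, the partner of CD8A, did not share it. CD8B was 39.7 FPKM in Puberty 2, where CD8A was listed at 0, and 8.55 and 17.8 FPKM in Prepuberty 1 and Postpuberty 3. CD5 and CD247 did not share it either.

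Markers of other leukocytes moved with the 10 genes, and their part in the values above was not tested. All 4 cytotoxic and NK cell genes that passed the filter shared the pattern, and the 6 in the table summed to 36.0 FPKM in Prepuberty 1, 53.0 FPKM in Postpuberty 3 and 1.79 to 7.82 FPKM in the other 7 libraries. B and plasma cell genes shared it in 6 of 8, but MS4A1, CD79B and POU2AF1 passed the filter through postpuberty alone, and without them the count was 3 of 5. Their sum was 19.0 FPKM in Prepuberty 1, 107 FPKM in Postpuberty 3 and 1 to 4.55 FPKM elsewhere, and the plasma cell gene JCHAIN alone had 8.95 and 64.2 FPKM. Interferon response genes shared it in 9 of 10, with sums of 648 and 670 FPKM against 78.5 to 288 FPKM, and ISG15 had 58.5 and 88.2 FPKM against at most 18.8 FPKM elsewhere. All 11 further leukocyte genes that passed shared it, with nearly equal sums of 296 FPKM in Prepuberty 1 and 295 FPKM in Postpuberty 3 against 63.5 to 138 FPKM.

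Microglia genes shared it in 8 of 12, with sums of 645 and 670 FPKM against 141 to 402 FPKM, and 4 of the 12 were higher in Postpuberty 3 than in Prepuberty 1. The complement gene C1QB had 115 and 161 FPKM against at most 89.7 FPKM elsewhere. Of the markers of resting microglia, named here after their values were seen, CX3CR1 shared the pattern with 34.9 and 28.5 FPKM against at most 22.2 FPKM, and P2RY12 and TMEM119 did not. P2RY12 was highest in Prepuberty 1 with 21.3 FPKM, but its 6.85 FPKM in Postpuberty 3 lay within the 5.60 to 19.8 FPKM of the other 7. TMEM119 had 19.0 and 12.9 FPKM, both within the 8.76 to 24.5 FPKM of the others. Genes of perivascular macrophages and monocytes shared the pattern in 2 of 5 and dendritic cell genes in 0 of 3. Of the 4 dendritic cell genes below the filter, CLEC9A and CD1D did not share it, and XCR1 and CCR7 did, with 0.217 and 0.163 FPKM in Prepuberty 1 and 0.284 and 0.403 FPKM in Postpuberty 3 against at most 0.0481 and 0.0369 FPKM elsewhere.

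The other lists are too short to tell their counts from the 7.59% of all genes. The count was 0 of 8 for vessel genes, 0 of 6 for neuron genes, 0 of 5 for astrocyte genes, 0 of 5 for oligodendrocyte genes, 0 of 7 for choroid plexus and meninges, 0 of 3 for pituitary genes and 1 of 7 for hypothalamus genes, the last being NPY. Some of these lists still varied with CD74 in their sum or were raised in the same libraries. The summed astrocyte genes had an r of 0.74 with CD74 over the 9 libraries. Most of that sum was GFAP, the astrocyte filament gene, with 6624 of 7108 FPKM in Prepuberty 1. GFAP had at most 5886 FPKM in the other libraries and an r of 0.75 with CD74. For the other astrocyte genes r ran only from -0.72 (SLC1A3) to 0.21. The choroid plexus and meninges list had median quotients to the gene's own median of 2.84 in Postpuberty 3 and 3.68 in Prepuberty 1, above those of the class I list, although Puberty 3 held its highest sum. Their part in the values of the 10 genes was not tested. The summed neuron genes were lower in Prepuberty 1 (619 FPKM) than in Postpuberty 3 (1276 FPKM). HBB, the 1 red blood cell gene that passed the filter, had 1.05 FPKM in Prepuberty 1, 5.07 FPKM in Postpuberty 3 and 10.4 FPKM in Puberty 2. The part of blood in the tissue was not tested.

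**Figure D4:**
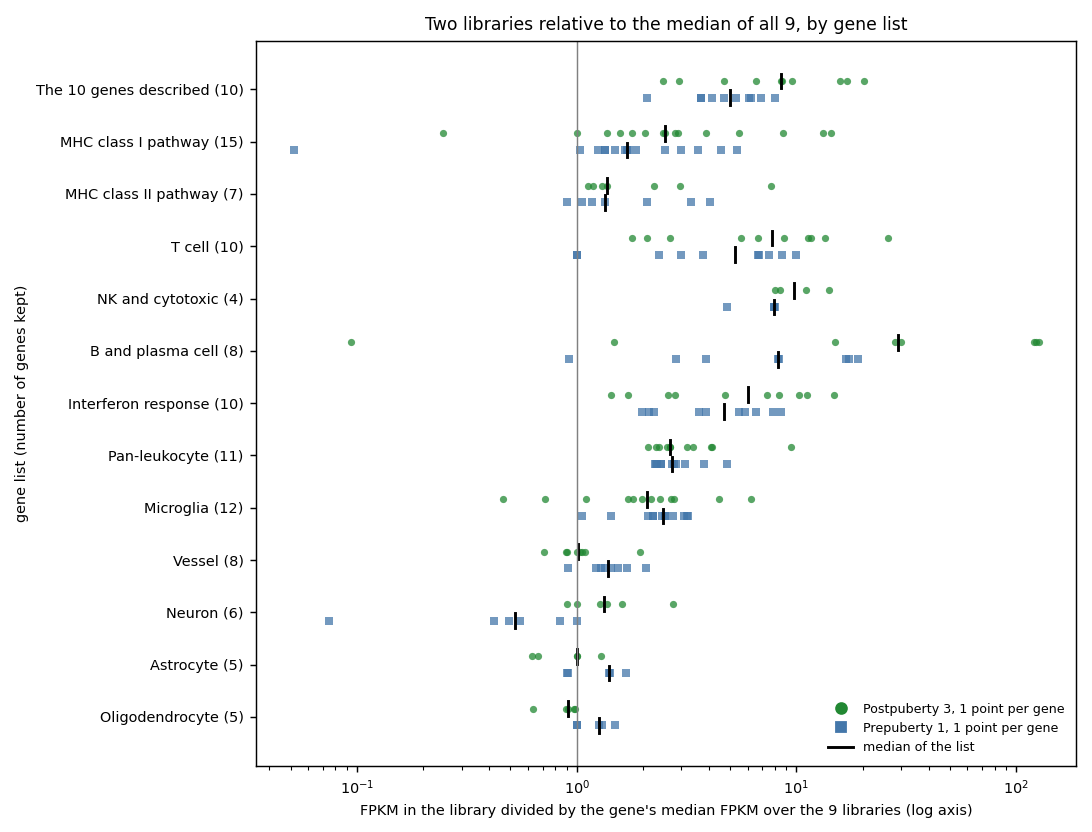
FPKM in Postpuberty 3 (circles) and Prepuberty 1 (squares) divided by the gene's median FPKM over the 9 libraries (horizontal log axis), 1 point per gene that passed the filter, by gene list, with a bar at each list's median. The 10 genes have medians of 8.53 and 4.99, B and plasma cell genes have 29.0 and 8.28, and the medians of vessel, astrocyte and oligodendrocyte genes lie between 0.918 and 1.41 (the choroid plexus and meninges list is not drawn). CD4 of the 10 genes and MS4A1, CD79B and POU2AF1 of the B and plasma cell list passed the filter through postpuberty alone.

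Lists differed in which of the high libraries was the higher. The median of Postpuberty 3 over Prepuberty 1 was 4.46 for B and plasma cell genes (3.38 without the 3 that passed the filter through postpuberty alone), 1.63 for T cell genes, 1.53 for class I genes, 1.10 for leukocyte genes, 1.08 for class II genes and 0.814 for microglia genes, against 1.04 over all genes. A median above 1.04 was not particular to immune lists, since it was also 3.25 for hypothalamus genes, 2.58 for pituitary genes (2.36 without CGA, which passed through postpuberty alone) and 2.14 for neuron genes. Of the 10 genes, 9 were higher in Postpuberty 3. The ratio was 3.27 for CD4, 2.46 for CD3D, 2.30 for B2M, 1.98 for CD3E and 1.79 for CD8A, but 1.42 for CIITA, 1.39 for CD74, 1.18 for CORO1A, 1.14 for PTPRC and 0.792 for LCP1. These are ratios between 1 animal and another, and no replicate stands behind them.

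The stages were then compared with limma on log2(FPKM + 1), with 3 animals per stage and p-values adjusted over all 14238 genes. Calls needed an adjusted p-value under 0.05 together with a log2 fold change of 1 or more in either direction. The 3 comparisons share their samples, and each stage is used in 2 of them. In puberty versus prepuberty 0 genes (0%) were called, as in postpuberty versus puberty (0%) and postpuberty versus prepuberty (0%). The numbers with an unadjusted p-value below 0.05 were 259, 305 and 116, none of them among the 9 genes tested, and the smallest adjusted p-value of limma over all genes was 0.676. None of the 10 genes had values in 1 stage that lay wholly above or below those of another.

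In puberty versus prepuberty the log2 fold changes of the 10 genes ran from -1.06 (PTPRC) to 0.20 (CORO1A) with a median of -0.74, where all genes had a median of -0.14. PTPRC had the smallest p-value of the 9 genes tested (limma, log2 fold change -1.06, 95% interval -2.79 to 0.67, adjusted p = 0.838). In postpuberty versus puberty the log2 fold changes ran from -0.26 (CORO1A) to 1.11 (B2M) with a median of 0.83 against 0.19 over all genes, and CD8A had the smallest p-value (limma, 0.94, 95% interval -0.50 to 2.37, adjusted p = 0.780). In postpuberty versus prepuberty, where each side held 1 high library, they ran from -0.47 (LCP1) to 0.34 (B2M and CD4) with a median of 0.10 against 0.048, and LCP1 had the largest difference in size (limma, -0.47, 95% interval -2.25 to 1.32, adjusted p = 1). CD4 passed the filter through postpuberty alone, so its differences from that stage are given as values and support nothing. The intervals of all 9 genes included 0 in each comparison. Standard errors of the 9 genes lay between 0.43 and 0.879 on the log2 scale. Differences between stages of this size, and some larger ones, were not detectable with these animals. B2M in postpuberty versus puberty, at 1.11, had a 95% interval from -0.88 to 3.09 (limma).

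**Figure D5:**
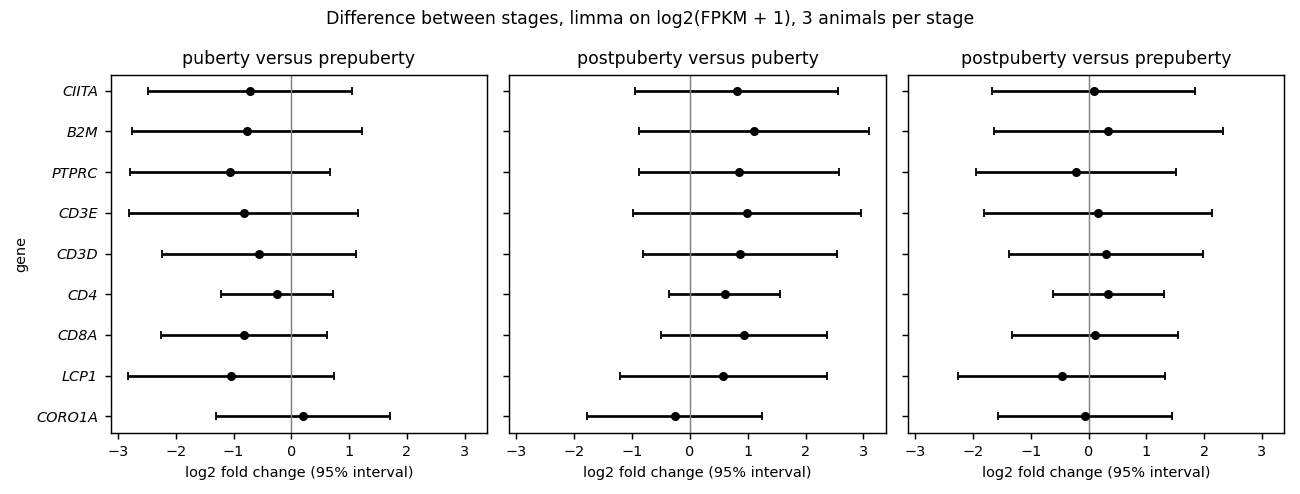
log2 fold change (horizontal axes) of the 9 genes other than CD74 between stages, with 95% intervals from limma on log2(FPKM + 1) and 3 animals per stage. Every interval crosses 0, among them those of PTPRC in puberty versus prepuberty (-2.79 to 0.67) and CD8A in postpuberty versus puberty (-0.50 to 2.37), and CD4 had passed the filter through postpuberty alone.

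Single animals moved these differences. In puberty versus prepuberty, 8 of the 9 genes kept their sign in every leave-out that gave a value. CD4 gave none without Postpuberty 3, and PTPRC ran from -1.48 to -0.48. In postpuberty versus puberty B2M ran from 0.075 to 1.63 and CD8A from 0.22 to 1.36. Postpuberty versus prepuberty crossed 0 for 8 of the 9 genes, the exception being CD4, which gave no value without Postpuberty 3. In that comparison CIITA was 0.77 without Prepuberty 1 and -0.77 without Postpuberty 3, and B2M went from 0.95 to -0.69 in the same way. With both libraries left out, 0 genes were called in each comparison, and CIITA, B2M, CD3E, CD3D and CD8A had log2 fold changes of -0.087, -0.083, -0.21, -0.091 and -0.17 in postpuberty versus prepuberty, while PTPRC had -0.41, LCP1 -0.55 and CORO1A -0.21.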

How the data were processed

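RNA of 9 hypothalami, 1 animal each, was sequenced as poly(A) libraries. The authors used Trimmomatic for trimming, HISAT2 for alignment to ARS-UI_Ramb_v3.0 and StringTie to assemble and quantify transcripts. The deposited values are FPKM per transcript, although the table is described as raw counts. They are not whole numbers, so no count model was used. Of its 115108 rows, 76684 had NM or XM identifiers and 76682 matched a RefSeq symbol of the same assembly. Their FPKM were summed per gene (21284 genes). FPKM divide by the library total, so a few abundant transcripts in a library lower all others. Multi-mapped reads can be split between transcripts or near-identical genes, and strand was not given in the sources used here.

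Mapped reads, listed by the study for each library, ranged from 19347227 (Puberty 2) to 23966519 (Prepuberty 3). Reads per gene are unknown, so no counting intervals are given, and precision is the spread between animals. The 3 libraries of a stage were separate animals.

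The filter kept 14238 genes with a mean of at least 0.5 FPKM in at least 1 stage. limma 3.58.1 (R 4.3.3) was fitted to log2(FPKM + 1) with a variance trend over all 9 libraries, with Benjamini-Hochberg adjustment over all genes kept. A fold change on this scale understates the change of low genes. The script was tested on simulated data. Named genes are the 10 genes, the 10 genes with a mean of at least 1 FPKM that correlated best with CD74, every gene of the class I, class II and T cell lists, and the 2 most abundant of each other list. Hypothalamus and pituitary genes, HBB, P2RY12, TMEM119, CX3CR1, CGA and the dendritic and B cell genes whose filtering bears on a count were named beyond this rule to check tissue and cell types. The 10 genes and all lists were chosen with earlier results of these data known. Counts without genes that passed the filter through 1 stage alone were added after seeing the data. Alternatives were other scalings, pseudocounts, filters and transcript choices, the replicate block and leaving out libraries. No sequences are shown, as none were used here. The rest was computed in Python 3.11.15 (pandas 2.3.3, numpy 2.4.6, matplotlib 3.10.9, scipy 1.17.1).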

Additional observations from a re-analysis of the deposited data

How the results depend on the processing

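The count of 0 genes called in each comparison held under the scaling, pseudocount, filter, transcript, variance and single-library alternatives and with the replicate block (0, 0 and 0). Without Prepuberty 1, Puberty 2 and Postpuberty 3 together, chosen after seeing the data, 2 genes passed in puberty versus prepuberty and 3 in postpuberty versus prepuberty, none of them among the 10 genes. The replicate numbers name separate animals. Same-numbered libraries deviated with r from -0.31 to 0.51, and differently numbered libraries of different stages with r from -0.56 to 0.31. Whether the numbers carry more than a name was not tested. Of the 10 genes, 9 had their 2 highest values in Postpuberty 3 and Prepuberty 1 also with equal totals and with upper quartile scaling, 8 did with the highest transcript per gene (LCP1 was lost) and 10 did without Puberty 2, settings chosen after seeing the data. No share of all genes is given for these settings, so the counts have no background beside them.

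None of the 9 genes tested reached an adjusted p-value under 0.05 in any alternative, although some passed a log2 fold change of 1 in size and several changed sign. With equal totals CORO1A was -0.019 in puberty versus prepuberty. With the highest transcript per gene, LCP1 was -0.36 in postpuberty versus puberty and CIITA -0.068 in postpuberty versus prepuberty. Without both Prepuberty 1 and Postpuberty 3, postpuberty versus puberty was -0.051 for CIITA, -0.058 for CD3E, -0.052 for CD3D and -0.074 for LCP1, and postpuberty versus prepuberty was -0.087 for CIITA, -0.083 for B2M, -0.21 for CD3E, -0.091 for CD3D and -0.17 for CD8A. In the same libraries r with CD74 was -0.053 for PTPRC, -0.016 for CD4, -0.028 for CD8A and -0.094 for LCP1, and without Puberty 2 as well it was -0.56 for CORO1A.

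Leaving out each library in turn, the log2 fold change in puberty versus prepuberty ran from -0.46 to 0.64 for CORO1A, -1.18 to -0.036 for CIITA, -1.28 to -0.16 for B2M, -1.48 to -0.48 for PTPRC, -1.25 to -0.15 for CD3E, -0.86 to -0.040 for CD3D, -0.38 to -0.024 for CD4, -1.30 to -0.39 for CD8A and -1.62 to -0.39 for LCP1. In postpuberty versus puberty it ran from -0.051 to 1.36 for CIITA, -0.058 to 1.53 for CD3E, -0.052 to 1.34 for CD3D, -0.074 to 1.07 for LCP1, 0.075 to 1.63 for B2M, 0.070 to 1.39 for PTPRC, 0.58 to 0.91 for CD4, 0.22 to 1.36 for CD8A and -0.79 to 0.39 for CORO1A. In postpuberty versus prepuberty it ran from -0.77 to 0.77 for CIITA, -0.69 to 0.95 for B2M, -0.99 to 0.37 for PTPRC, -0.88 to 0.84 for CD3E, -0.61 to 0.82 for CD3D, -0.61 to 0.55 for CD8A, -1.12 to 0.10 for LCP1, 0.22 to 0.65 for CD4 and -0.59 to 0.32 for CORO1A. The adjusted p-values of limma for the 9 genes tested ranged over all alternatives from 0.581 to 1 in puberty versus prepuberty, from 0.516 to 1 in postpuberty versus puberty and stayed near 1 in postpuberty versus prepuberty. CD4 gave no value under a filter of 1 FPKM or without Postpuberty 3.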
